A study of Mus musculus with 6 samples.

Results

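The genes described here are the machinery of apoptosis and necroptosis, as a list of 34 named genes out of 54532 in the deposited table. The list was read by gene symbol and ordered by role: 15 genes of the BCL2 family, 10 caspases and mitochondrial death factors, 4 inhibitors, and 5 genes of death receptor signalling and necroptosis. All 34 symbols were found once each. RNA sequencing had measured them in smooth muscle cells of the mouse aorta (MASMCs), which per the methods were obtained by collagenase digestion from abdominal aortas of wild-type mice. The cells had received an adenovirus carrying either a control plasmid (Ad-Con, 3 libraries, genotype WT) or a plasmid for overexpression of pyruvate dehydrogenase kinase 4 (Ad-PDK4, 3 libraries), a mitochondrial enzyme that switches off pyruvate oxidation, and the question was how this kinase affects the function of these cells. Both groups had also been exposed to angiotensin II (Ang II) according to the published text, a treatment absent from the labels, and cells without Ang II or without virus were not analysed here. The published text calls the replicates biological, while the labels do not say whether they came from separate cultures or animals, so that p-values measure the spread between these libraries.

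Apoptosis is a form of cell death in which proteases of the caspase family dismantle the cell from within. In its mitochondrial arm, BAX, BAK and BOK open pores in the outer mitochondrial membrane. BH3-only proteins switch BAX and BAK on or neutralise their inhibitors, and BCL2, BCL-XL, BCL-W and MCL1 hold BAX and BAK in check. Cytochrome c that leaves the pores assembles with APAF1 and caspase 9. In the death receptor arm, FADD recruits caspase 8, which cFLIP restrains. Where caspase 8 is blocked, RIPK3 acting with RIPK1 can instead phosphorylate MLKL, which ruptures the plasma membrane in necroptosis. Loss of smooth muscle cells by such routes is a recognised feature of the aneurysmal aortic wall.

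The labels were first checked with the targeted gene. Pdk4 had 9.50, 10.4 and 10.1 FPKM (counted fragments divided by gene length in kilobases and by library size) in Ad-Con-labelled libraries and 7.67, 7.40 and 7.38 FPKM in Ad-PDK4-labelled ones, where it was lower in every library. Its log2 fold change (log2FC, on the log2 scale of FPKM + 0.1) was -0.42 (SE 0.06, limma adjusted p = 1.1e-03), against the direction the label names, and whether the table counts reads of the plasmid insert is not known. "Rose" and "fell" below compare the libraries by these labels, Ad-PDK4 over Ad-Con, and not by a measured excess of Pdk4. Total reads ranged from 17588942 to 21861872 per library. The summed level of 12 smooth muscle markers was 173 FPKM in each of the Ad-Con-labelled libraries and 135 to 145 FPKM in the Ad-PDK4-labelled ones, and of the 5 tested 2 fell (Acta2 and Tpm2) and 1 rose (Cald1, from 56.0 ± 0.646 to 71.9 ± 2.82 FPKM, n = 3). Acta2 stood at 76.9, 78.7 and 78.4 FPKM in Ad-Con-labelled libraries and 33.5, 38.0 and 37.2 in Ad-PDK4-labelled ones. Most of the list, namely Tagln, Myh11, Cnn1, Des, Mylk, Lmod1, Myocd and Actg2, stayed under 1 FPKM in every library. The summed level thus came almost wholly from Acta2, Cald1, Tpm2 and Smtn. Of 10 macrophage markers, 5, namely Ptprc, Tyrobp, C1qa, C1qb and C1qc, had 0 reads in all 6 libraries, and the summed level of the 10 ranged from 15.0 to 17.9 FPKM in Ad-Con-labelled libraries and from 5.92 to 7.44 FPKM in Ad-PDK4-labelled ones, mostly Cd68. Cd68 fell from 14.2 ± 1.78 to 4.24 ± 0.991 FPKM (n = 3). Csf1r (0.258 ± 0.143 against 0.640 ± 0.0804 FPKM, not tested) was instead higher in Ad-PDK4-labelled libraries. So was Lyz2 (1.51 ± 0.195 against 1.98 ± 0.250 FPKM), which did not pass. Of 8 endothelial markers 4 had at most 3 reads in every library, as had 5 of 6 T cell markers. Kdr, the 1 endothelial marker tested, had 0.536 ± 0.110 against 0.919 ± 0.199 FPKM (n = 3). Its groups did not overlap, but it did not pass. Pecam1 and Vwf had few reads and overlapped between the labels. The summed level of 8 fibroblast markers, led by Col1a1, ranged from 1617 to 1758 FPKM in Ad-Con-labelled libraries and from 844 to 929 FPKM in Ad-PDK4-labelled ones. Of the 7 fibroblast markers tested 5 fell, Dcn rose from 90.1 ± 8.20 to 161 ± 19.0 FPKM (n = 3), and Pdgfra did not pass (20.5 ± 0.729 against 19.9 ± 0.804 FPKM, n = 3). In bulk RNA, fewer cells of a type and less RNA per cell cannot be told apart, and the part of these marker differences in the results was not tested.

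The promoter windows of the members are described before their values. RefSeq (GRCm38.p6) gave 42 windows for 30 of the 34 genes, each of 250 bases before and 50 after an annotated transcription start. Bik, Htra2, Pmaip1 and Tradd were not matched. Each window was searched on both strands for the core of the interferon-stimulated response element (GAAANNGAAA, present in 3.44% of all 32851 windows), a kappa-B motif (GGGNNTTTCC, 1.63%), the GAS motif of STAT factors (TTCNNNGAA, 8.30%) and a forkhead motif (TGTTTAC, 3.65%). The kappa-B motif was found in 3 of the 42 windows (Bcl2l1, Mcl1 and Bbc3) and the forkhead motif in 2 (Bcl2l11 and Bbc3). The interferon element was found in 2 windows (Cflar and Ripk1) and the GAS motif in 1, that of Ripk1, at 2 places. One of these overlaps the interferon element of Ripk1. A match is a description of letters and not a binding site.

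The forkhead matches are shown because they belong to 2 BH3-only genes that moved in opposite directions, Bcl2l11 down and Bbc3 up. That of Bcl2l11 lies before the whole gene. That of Bbc3 lies before an annotated start inside the gene, which spans chr7:16308393-16318205. Capitals mark the motif, and the bases are written 5′ to 3′ on the strand of the gene. The windows are chr2:128125788-128125847 (plus strand) for Bcl2l11, with the motif on the opposite strand, and chr7:16310064-16310130 (plus strand) for Bbc3.
Bcl2l11: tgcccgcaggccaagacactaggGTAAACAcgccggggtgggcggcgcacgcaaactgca
Bbc3: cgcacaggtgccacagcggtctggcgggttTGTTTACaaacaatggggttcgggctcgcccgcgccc

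The kappa-B matches of Bcl2l1 and Mcl1 are shown because the same family of survival genes holds one member that rose and one that did not pass the test. They lie at chr2:152830896-152830965 (minus strand) and chr3:95658663-95658720 (plus strand), each with the motif on the strand opposite to the gene, in capitals. The Bcl2l1 match lies before an annotated start inside the gene, which spans chr2:152780668-152831728.
Bcl2l1: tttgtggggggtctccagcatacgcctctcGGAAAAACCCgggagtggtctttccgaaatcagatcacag
Mcl1: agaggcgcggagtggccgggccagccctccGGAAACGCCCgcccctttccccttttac

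The interferon element of Cflar, in capitals and on the strand opposite to the gene, lies just after the start at chr1:58711487-58711516 (plus strand).
Cflar: ccacgtctgcTTTCGGTTTCtgggcgtctc

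The 100 bases before the start of the genes with the largest rise and the largest fall among the members are given for comparison, at chr8:111338206-111338305 (minus strand) for Mlkl and chr1:93685475-93685574 (plus strand) for Bok. The last bases of the window after this start were found in a transcript of the gene for Mlkl, but not for Bok. The start used for Bok is therefore uncertain. None of the 4 motifs was found in the whole windows of these 2 genes, which says nothing about sequence outside them.
Mlkl: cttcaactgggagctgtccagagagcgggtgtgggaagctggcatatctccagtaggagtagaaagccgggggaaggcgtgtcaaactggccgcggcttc
Bok: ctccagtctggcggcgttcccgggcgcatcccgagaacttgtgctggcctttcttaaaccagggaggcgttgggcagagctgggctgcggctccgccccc

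To ask which parts of the death machinery differed between the labels, log2(FPKM + 0.1) was tested with limma over all 13423 genes with a mean of at least 0.5 FPKM, and the rows of the members were read from that fit. A gene passed the test at a Benjamini-Hochberg adjusted p below 0.05 over all tested genes. Of the 34 members 32 were tested, and 12 rose and 7 fell, where 21.8% of all tested genes rose and 20.8% fell. The remaining 13 did not pass. Of these 19 genes 4 reached a 2-fold difference, Mlkl upwards (background 3.95%) and Bok, Bmf and Bcl2l11 downwards (background 2.68%). The median log2FC over the 32 members was 0.12, and over all tested genes -0.003. The role groups below hold few genes each, and their counts were not tested against the shares over all tested genes. The libraries of the labels did not overlap for 20 of the 32 members (13 higher, background 27.8%, and 7 lower, background 26.5%; 54.3% in either direction). The members tested ranged in mean level from 0.821 FPKM (Diablo) to 132 FPKM (Bax). The 2 members under the filter were Bik, with 19, 1 and 5 reads in Ad-Con-labelled libraries and 8, 4 and 8 in Ad-PDK4-labelled ones, and Hrk, with 3, 0 and 0 against 0, 2 and 2 reads. Both are BH3-only genes, and no fold is given for Hrk, which was at or under 3 reads in every library.

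**Figure D1:**
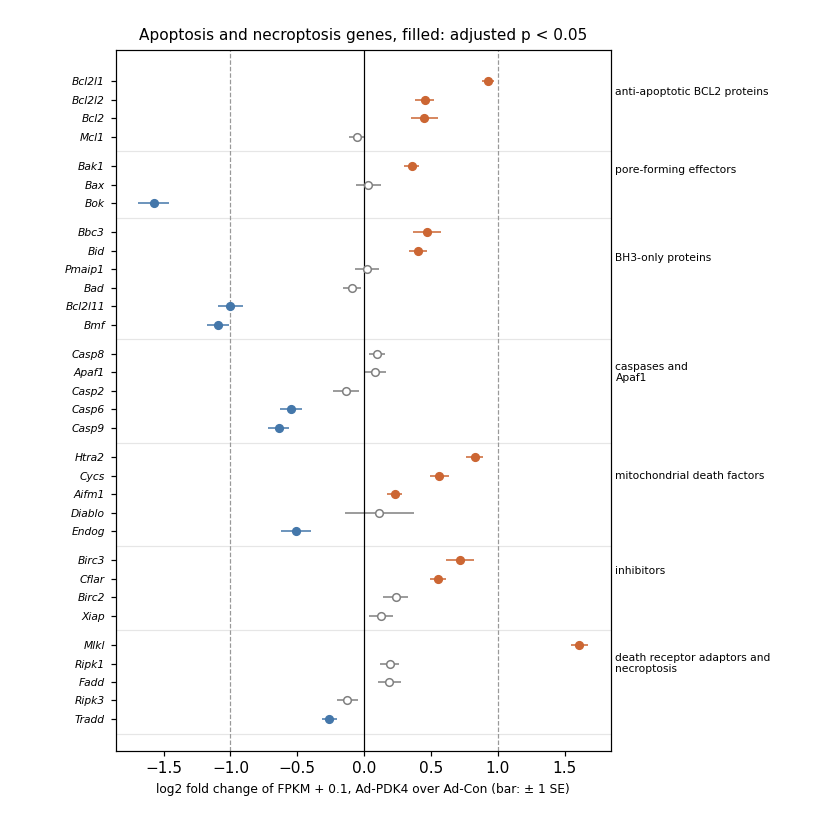
Log2 fold change of each of the 32 tested members (x axis, log2 of FPKM + 0.1, libraries labelled Ad-PDK4 over Ad-Con, bars ± 1 SE), grouped by role, with dashed lines at a 2-fold change and filled points for genes past an adjusted p of 0.05. Mlkl lies alone past the right line at 1.61, Bok (-1.57) and Bmf (-1.09) lie past the left line, and Bcl2l11 sits on it.

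Of the 4 survival genes of the BCL2 family 3 rose and none fell (background 21.8% and 20.8%). Bcl2l1 (ENSMUSG00000007659, chr2:152780668-152831728, minus strand), which encodes BCL-XL and holds one of the kappa-B matches, had 23.9, 24.0 and 23.6 FPKM in Ad-Con-labelled libraries and 44.7, 47.3 and 44.3 FPKM in Ad-PDK4-labelled ones. All 3 libraries labelled Ad-PDK4 lay above every control library, and the mean level was 1.91 times higher (log2FC 0.93, SE 0.05, limma adjusted p = 5.0e-06). Bcl2 itself, the founding member, was scarce and rose from 1.79 ± 0.101 to 2.48 ± 0.101 FPKM (mean ± SD, n = 3, log2FC 0.45, limma adjusted p = 8.4e-03). Bcl2l2, encoding BCL-W, rose by the same 0.45 on the log2 scale, from 7.70 ± 0.260 to 10.6 ± 0.830 FPKM (limma adjusted p = 1.7e-03), and shares 12.8% of its longest transcript with Gm20521. Mcl1, the most abundant of the 4 and a protein of very short half-life, stood at 59.1, 55.1 and 60.4 FPKM against 57.2, 53.2 and 57.8 FPKM. Its groups overlapped (log2FC -0.05, SE 0.06, limma adjusted p = 0.48). The 4 genes together summed to 92.6, 88.9 and 93.2 FPKM in Ad-Con-labelled libraries and 114, 115 and 115 FPKM in Ad-PDK4-labelled ones.

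Of the 3 pore-forming effectors 1 rose and 1 fell (background 21.8% and 20.8%), and 1 did not pass. Bok (ENSMUSG00000026278, chr1:93685660-93695764, plus strand), a relative of BAX and BAK that acts largely outside the control of the survival proteins, had 11.6, 11.8 and 13.5 FPKM in Ad-Con-labelled libraries and 4.75, 3.48 and 4.01 FPKM in Ad-PDK4-labelled ones. The groups lay well apart, and the mean was 3.01 times lower (log2FC -1.57, SE 0.12, limma adjusted p = 3.4e-05). It was the largest fall among the members. Bak1 rose from 20.6 ± 0.914 to 26.4 ± 0.732 FPKM (n = 3, log2FC 0.36, limma adjusted p = 1.4e-03). Of the exon bases of Bak1, 25.5% overlap other genes. Bax was the most abundant member of all, at 138, 120 and 135 FPKM against 130, 153 and 120 FPKM, and shares 13.8% of its longest transcript with Gm45808. Its groups overlapped (log2FC 0.03, SE 0.10, limma adjusted p = 0.82).

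Among the 8 BH3-only genes, 2 rose and 2 fell (background 21.8% and 20.8%), with 2 not past the test and 2 not tested. Bmf (ENSMUSG00000040093, chr2:118528757-118549687, minus strand), whose protein is linked to the cytoskeleton in healthy cells, had 6.93, 7.05 and 7.27 FPKM in Ad-Con-labelled libraries and 3.07, 3.63 and 3.13 FPKM in Ad-PDK4-labelled ones. Every library labelled Ad-PDK4 lay below all controls, 2.16 times lower in the mean (log2FC -1.09, SE 0.08, limma adjusted p = 4.2e-05). Bcl2l11 (ENSMUSG00000027381, chr2:128126038-128162547, plus strand), which encodes BIM, an activator able to bind all survival proteins, and holds one of the forkhead matches, had 6.63, 6.21 and 6.29 FPKM against 3.23, 2.77 and 3.45 FPKM. The groups did not overlap, and the mean was 2.03 times lower (SE 0.09 on the log2 scale, limma adjusted p = 1.2e-04). Bcl2l11 lay at the 2-fold limit and fell short of it without Ad-Con replicate 1 (log2FC -0.97) or Ad-PDK4 replicate 2 (log2FC -0.91), while its adjusted p passed in all 14 alternatives in which it was tested. It also fell short under TPM scaling (log2FC -0.96). With a pseudocount of 1, neither Bmf (-0.92) nor Bcl2l11 (-0.83) reached the limit.

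The BH3-only genes that rose were Bbc3 and Bid. Bbc3, encoding PUMA, a p53 target, with the other forkhead match, had 19.2, 18.1 and 18.9 FPKM in Ad-Con-labelled libraries and 24.3, 31.1 and 23.3 FPKM in Ad-PDK4-labelled ones, with replicate 2 the highest. Its log2FC was 0.47 (SE 0.11, limma adjusted p = 8.6e-03). Bid, which caspase 8 cleaves to link the death receptor arm to the mitochondria, rose from 13.9 ± 0.802 to 18.5 ± 1.12 FPKM (n = 3, log2FC 0.40, limma adjusted p = 2.2e-03). Of its exon bases 17.7% overlap Bcl2l13 on the other strand. Pmaip1, encoding NOXA, and Bad did not pass, with log2FC values of 0.02 (limma adjusted p = 0.88) and -0.09 (limma adjusted p = 0.32). The 8 genes together summed to 86.7 ± 2.16 FPKM in Ad-Con-labelled libraries and 90.6 ± 3.52 FPKM in Ad-PDK4-labelled ones (n = 3).

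**Figure D2:**
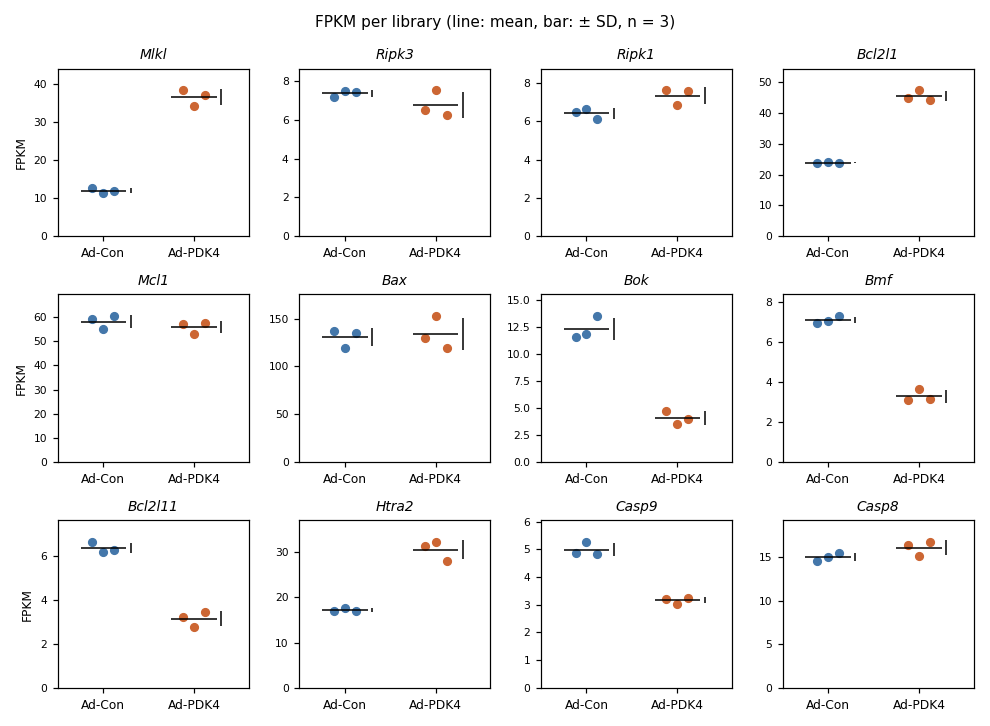
FPKM of 12 members in each library (y axis, FPKM from 0; x axis, the 2 labels; points are libraries, lines means and bars ± SD, n = 3). Mlkl, Bcl2l1, Htra2 and Ripk1 (not past the test) are higher and Bok, Bmf, Bcl2l11 and Casp9 lower in all 3 libraries labelled Ad-PDK4, while the points of Ripk3, Mcl1, Bax and Casp8 overlap.

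Of the 5 genes in the group of caspases and Apaf1 none rose and 2 fell (background 21.8% and 20.8%). Casp9, the initiator of the mitochondrial arm, had 4.88, 5.26 and 4.84 FPKM in Ad-Con-labelled libraries and 3.21, 3.03 and 3.25 FPKM in Ad-PDK4-labelled ones. The groups did not overlap (log2FC -0.64, SE 0.08, limma adjusted p = 4.0e-04). Casp6, an executioner that cleaves nuclear lamins, fell from 4.68 ± 0.181 to 3.18 ± 0.234 FPKM (n = 3, log2FC -0.55, limma adjusted p = 1.4e-03). Casp8, the initiator downstream of death receptors, had 14.6, 15.0 and 15.5 FPKM against 16.4, 15.2 and 16.8 FPKM. Its groups overlapped (log2FC 0.10, SE 0.06, limma adjusted p = 0.21). Casp2 (-0.14, limma adjusted p = 0.29) and Apaf1, the scaffold of the apoptosome (0.08, limma adjusted p = 0.45), did not pass either.

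Of the 5 genes for proteins that leave the mitochondria during cell death, 3 rose and 1 fell (background 21.8% and 20.8%). Htra2 (ENSMUSG00000068329, chr6:83051266-83055273, minus strand), encoding a protease that degrades inhibitors of apoptosis, had 17.0, 17.6 and 16.9 FPKM in Ad-Con-labelled libraries and 31.4, 32.2 and 28.2 FPKM in Ad-PDK4-labelled ones. The groups lay apart (log2FC 0.83, SE 0.06, limma adjusted p = 3.9e-05). Of its exon bases 43.7% overlap Aup1 and Loxl3 on the other strand, and Loxl3 had 1060, 1042 and 1013 against 1732, 1830 and 1817 reads. Whether counting used strand is not given in the sources used here, so these genes cannot be fully told apart. Cycs, cytochrome c, rose from 10.3 ± 0.392 to 15.2 ± 1.10 FPKM (n = 3, log2FC 0.56, limma adjusted p = 4.7e-04). It shares 28.2% of its longest transcript with 43 other genes, so its level is uncertain. Aifm1, encoding a flavoprotein that takes part in caspase-independent death, rose by 0.23 on the log2 scale (limma adjusted p = 0.013), and without Ad-PDK4 replicate 1 it did not pass (0.20, limma adjusted p = 0.057).

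Endog, a mitochondrial nuclease, was the only one of these 5 to fall. It had 7.12, 7.55 and 7.68 FPKM in Ad-Con-labelled libraries and 4.86, 6.24 and 4.64 FPKM in Ad-PDK4-labelled ones, where replicate 2 was closest to the controls. Its log2FC was -0.51 (SE 0.11, limma adjusted p = 7.8e-03), on 94 to 154 reads per library, and 35.7% of its exon bases overlap Spout1 on the other strand. Diablo, which encodes SMAC, an antagonist of the inhibitors, was the least abundant tested member, at 0.669, 0.683 and 0.993 FPKM against 0.713, 0.723 and 1.15 FPKM. The groups overlapped (log2FC 0.11, SE 0.26, limma adjusted p = 0.75). Of its exon bases 40.9% overlap other annotated genes, so its level is uncertain as well.

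Of the 4 inhibitors 2 rose and none fell (background 21.8% and 20.8%). Birc3, encoding the ubiquitin ligase cIAP2 and a target of NF-kB, had 3.14, 3.12 and 3.29 FPKM in Ad-Con-labelled libraries and 4.91, 4.92 and 6.16 FPKM in Ad-PDK4-labelled ones. All 3 values lay above the controls, with replicate 3 the highest (log2FC 0.72, SE 0.10, limma adjusted p = 1.0e-03). Cflar, encoding cFLIP, rose from 8.53 ± 0.417 to 12.5 ± 0.327 FPKM (n = 3, log2FC 0.55, limma adjusted p = 2.5e-04). It shares 11.6% of its longest transcript with other genes. Birc2, encoding cIAP1, had a log2FC of 0.24 (SE 0.09, limma adjusted p = 0.072) and passed in 5 of 15 alternatives, among them the fit without Ad-PDK4 replicate 2 (0.33, limma adjusted p = 0.014). Xiap, the direct inhibitor of caspases, had 0.12 (SE 0.09, limma adjusted p = 0.31).

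Of the genes of death receptor signalling and necroptosis, Mlkl rose and its upstream kinases did not pass the test. Mlkl (ENSMUSG00000012519, chr8:111311797-111338177, minus strand), the executioner of necroptosis, had 12.5, 11.3 and 11.9 FPKM in Ad-Con-labelled libraries and 38.3, 34.2 and 37.0 FPKM in Ad-PDK4-labelled ones. The groups lay far apart, on 455 to 587 against 1378 to 1884 reads, and the mean was 3.07 times higher. Its log2FC of 1.61 (SE 0.06, limma adjusted p = 1.3e-06) was the largest rise among the members, and it ran from 1.54 to 1.66 over 15 alternatives. No exon of Mlkl overlaps another gene, and no part of its longest transcript is shared.

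Ripk3, the kinase that activates MLKL, had 7.18, 7.48 and 7.46 FPKM in Ad-Con-labelled libraries and 6.50, 7.53 and 6.28 FPKM in Ad-PDK4-labelled ones. Replicate 2 labelled Ad-PDK4 exceeded all controls while the other two lay below them (log2FC -0.13, SE 0.08, limma adjusted p = 0.25). Without that library Ripk3 passed as lower (-0.20, limma adjusted p = 0.039). Ripk1, the kinase at the branch between survival and death, had 6.51, 6.64 and 6.11 against 7.62, 6.85 and 7.56 FPKM. These values did not overlap, but the gene missed the threshold (log2FC 0.19, SE 0.07, limma adjusted p = 0.062) and passed without Ad-PDK4 replicate 2 (0.24, limma adjusted p = 0.029). Of the adaptors, Tradd, which couples TNF receptor 1 to RIPK1, fell from 21.3 ± 0.155 to 17.8 ± 1.07 FPKM (n = 3, log2FC -0.26, limma adjusted p = 8.1e-03). Fadd had 0.19 (SE 0.09, limma adjusted p = 0.12).

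**Figure D3:**
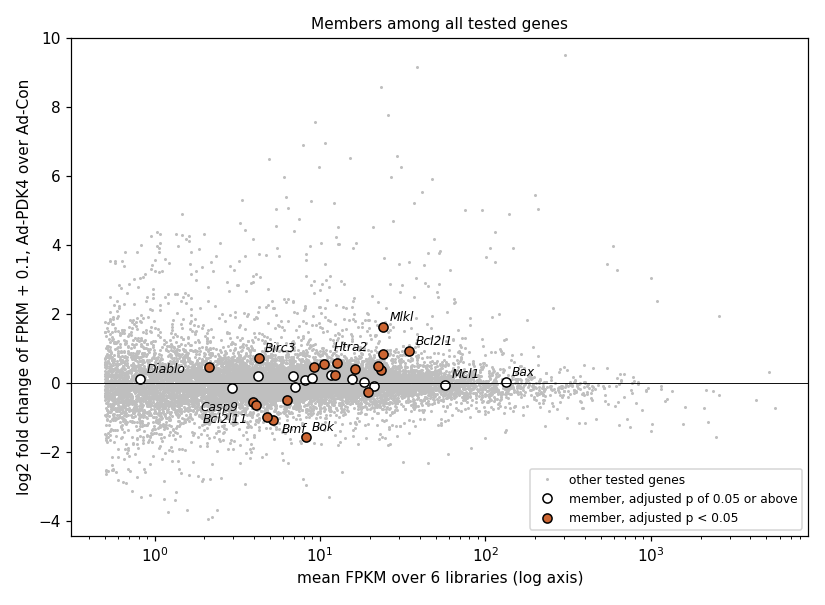
Log2 fold change (y axis, log2 of FPKM + 0.1, Ad-PDK4 over Ad-Con) against mean FPKM over the 6 libraries (x axis, log scale) for 13423 tested genes in grey, with the 32 tested members as circles, filled where the adjusted p was below 0.05. The members lie between -1.57 (Bok) and 1.61 (Mlkl), inside the range of all genes.

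Balances between members were followed as ratios of FPKM within a library, which do not depend on the scaling between libraries. With 3 against 3 libraries the exact two-sided permutation test has 20 arrangements and cannot go below p = 0.1, the value it gave for each of the 4 ratios examined (0.1 after Benjamini-Hochberg adjustment). The ratio of Mlkl to Ripk3 was 1.61 ± 0.121 (n = 3) in Ad-Con-labelled libraries and 5.89, 4.54 and 5.90 in Ad-PDK4-labelled ones. The ratio of Bcl2l1 to Mcl1 was 0.404, 0.436 and 0.392 against 0.782, 0.890 and 0.767. The groups did not overlap for either. The ratio of Bax to Bcl2 was 80.1, 62.9 and 77.5 against 50.8, 60.5 and 50.7, with Ad-Con replicate 2 and Ad-PDK4 replicate 2 close to each other. The ratio of Casp8 to Cflar was 1.77 ± 0.0336 against 1.29 ± 0.0592 (n = 3), again without overlap.

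**Figure D4:**
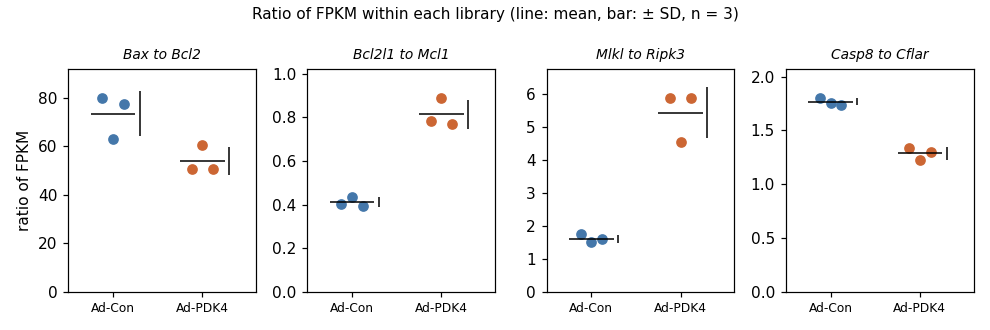
Ratio of FPKM between 2 members in each library (y axis, ratio from 0; x axis, the 2 labels; points are libraries, lines means and bars ± SD, n = 3). The ratios of Mlkl to Ripk3 and Bcl2l1 to Mcl1 are higher and those of Bax to Bcl2 and Casp8 to Cflar lower in all 3 libraries labelled Ad-PDK4.

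The same pathways hold further genes, which were followed as a list of 30. Of these 22 were tested, and 10 rose and 3 fell (background 21.8% and 20.8%). Zbp1 (ENSMUSG00000027514, chr2:173206612-173218923, minus strand), a sensor of Z-form nucleic acids that can recruit RIPK3 and is known to be induced by interferon, had 39, 49 and 51 reads in Ad-Con-labelled libraries and 3639, 3745 and 5147 in Ad-PDK4-labelled ones. In FPKM this was 0.543, 0.791 and 0.797 against 56.7, 60.6 and 66.0. The libraries labelled Ad-PDK4 lay far above all controls, with a mean 86.0 times higher (log2FC 6.25, SE 0.14, limma adjusted p = 9.6e-08). Tnfaip3, encoding A20, an enzyme that restrains NF-kB and RIPK3-dependent death, had 1.98, 1.84 and 1.75 FPKM against 8.21, 8.67 and 9.23 FPKM (log2FC 2.17, SE 0.08, limma adjusted p = 1.0e-06). The death receptor gene Fas rose from 8.98 ± 1.34 to 18.9 ± 1.24 FPKM (n = 3, log2FC 1.08, limma adjusted p = 1.5e-04), and 0.98 without Ad-Con replicate 2.

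Of 8 regulators of receptor complexes 6 rose and none fell (background 21.8% and 20.8%). Besides Zbp1 and Tnfaip3 these were Rnf31 (0.83), the catalytic subunit of the linear ubiquitin ligase, Cyld (0.60), a deubiquitinase, Traf2 (0.49), an adaptor, and Rbck1 (0.24), another subunit of that ligase (all log2FC). Of the exon bases of Rnf31 2.15% overlap Irf9, which had 9.58 to 10.4 FPKM against 28.8 to 30.7 FPKM. Rbck1 did not pass in 7 of 15 alternatives, which included leaving out Ad-Con replicate 1 (0.22) or 3 (0.24), or Ad-PDK4 replicate 1 (0.22) or 2 (0.19). Tnfrsf1a, encoding TNF receptor 1 and the most abundant gene of the list, rose from 71.1 ± 1.07 to 89.5 ± 3.90 FPKM (n = 3, log2FC 0.33, limma adjusted p = 1.2e-03). Trp53, encoding p53, rose by 0.51 on the log2 scale (limma adjusted p = 1.2e-04), and shares 2.94% of its longest transcript with other genes. Birc6, encoding a giant ubiquitin ligase that binds caspases, rose by 0.23 (limma adjusted p = 0.027), and did not pass in 6 of 15 alternatives, which included leaving out any one Ad-Con replicate (0.25, 0.24 and 0.20) or Ad-PDK4 replicate 1 (0.23) or 2 (0.21). The 9 remaining tested genes of the list did not pass.

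Parp1, a DNA repair enzyme cut by caspases, had -0.18 (limma adjusted p = 0.024), and did not pass in 5 of 15 alternatives, which included leaving out Ad-PDK4 replicate 1 (-0.16) or any one Ad-Con replicate (-0.18, -0.18 and -0.19). Birc5, encoding survivin, an inhibitor of apoptosis family protein used in mitosis, fell from 2.72 ± 0.444 to 1.23 ± 0.111 FPKM (n = 3, log2FC -1.07, limma adjusted p = 8.0e-04), and -0.97 without Ad-Con replicate 3.

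Ligands of the death receptors were near or at 0 reads. Fasl had 0 reads in every library, and Tnf had 0 in Ad-Con-labelled libraries and 0, 0 and 2 in Ad-PDK4-labelled ones. A library with 0 reads may stand for up to 3, by counting error only. Tnfsf10, encoding TRAIL, had 0, 2 and 0 reads against 20, 12 and 18. Taking 3 reads in each control library as the floor, it was at least 5.37-fold higher in Ad-PDK4-labelled ones, and it was too low to be tested. Bcl2a1a, Bcl2a1b and Bcl2a1d had 0 reads in every library, and Bcl2l10 had 1 read in 1 library. The 3 Bcl2a1 genes share 69.0% to 79.5% of their longest transcripts with other genes, so reads of these genes may not have been assigned.

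**Figure D5:**
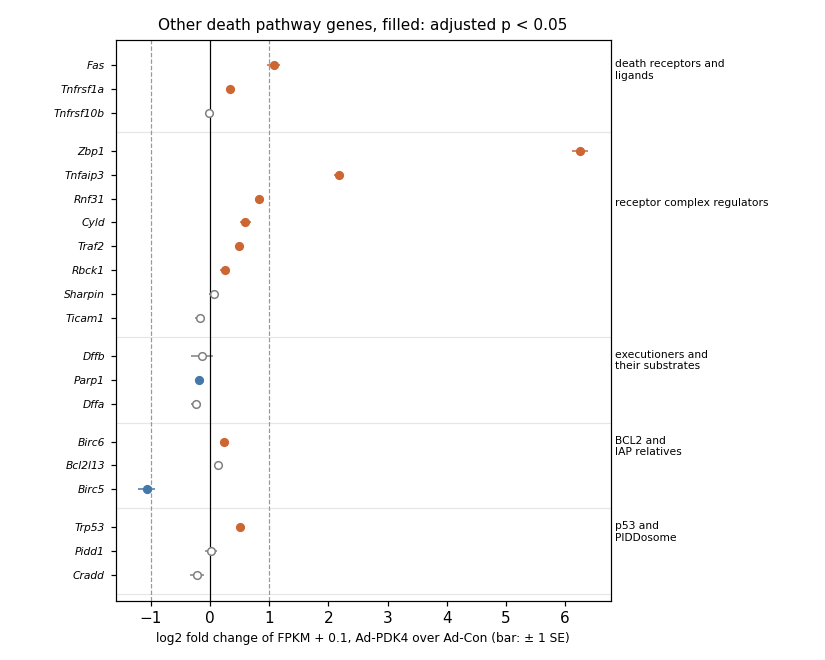
Log2 fold change (x axis, log2 of FPKM + 0.1, Ad-PDK4 over Ad-Con, bars ± 1 SE) of 20 of the 22 tested genes of the further list, grouped by role, with dashed lines at a 2-fold change and filled points past an adjusted p of 0.05. Zbp1 lies far to the right at 6.25, followed by Tnfaip3 (2.17) and Fas (1.08), and Birc5 (-1.07) lies farthest to the left.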

How the data were processed

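The authors deposited 1 table of FPKM per gene and library, with gene lengths, without pooling. The submitters' processing notes name CASAVA 1.8, fastp, HISAT2 2.0.5, featureCounts 1.5.0-p3, DESeq2 1.20.0 and the build GRCm39. GENCODE M21 (GRCm38) held 54409 of the identifiers, 98.3% of them at the same coordinates, so coordinates are those of GRCm38. FPKM times gene length gave whole reads (tolerance 0.01) for 100% of non-zero values, and the library sizes behind the FPKM were already scaled between libraries. Depth was 17588942 to 21861872 reads.

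Log2(FPKM + 0.1) was compared with limma 3.58.1 in R 4.3.3 (lmFit, eBayes with trend and robust), without covariates, over 13423 genes with a mean of at least 0.5 FPKM. Fold changes are on that scale and understate those of low genes, and every adjusted p is Benjamini-Hochberg over all tested genes. Times higher or lower are ratios of mean FPKM. The unit is not a count, so no count model was the main test. The steps were tested on simulated data. Sharing was measured with words of 50 bases in GENCODE transcripts. All members were named, with full values for those past 2-fold and the 3 largest changes each way. Of the further list, those past 2-fold, at 3 reads or fewer, or most abundant were named, and the others named there, in part of the marker lists and among overlapping genes were picked with their values in view. A pair of genes counted in the further list is not reported here by name. The members and lists were chosen with earlier results of these data known. No 2 replicates agreed within sampling noise (chi-square per degree of freedom of at least 3.99). Alternatives were other pseudocounts (1 and 0.01), filters (none, or 5 FPKM), scalings (TPM, quantile), plain moderation, a replicate block, limma-voom on recovered reads, and leaving out each library.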

Additional observations from a re-analysis of the deposited data

How the results depend on the processing

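Of the 19 members past the threshold, 18 kept their direction and stayed past it in every one of the 15 alternatives in which each was tested, and Aifm1 did not pass under quantile normalization (0.16) or without Ad-PDK4 replicate 1 (0.20). With a pseudocount of 1, 1 member fell with a fold of at least 2 in place of 3, and 0 of the further genes in place of 1. With a minimum of 5 FPKM fewer genes were tested, so 4 members fell, 0 further genes fell 2-fold, and the group medians became 0.0197 for BH3-only genes, 0.0895 for caspases and Apaf1, 0.39 for mitochondrial factors, 0.24 for inhibitors and 0.0322 for adaptors and necroptosis, against -0.04, -0.14, 0.23, 0.39 and 0.19. The median of the survival genes was 0.37 with a pseudocount of 1 against 0.45. Under quantile normalization 5 further genes fell and the median of BH3-only genes was -0.0938. The cause of these moves was not tested.

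Leaving out each library in turn gave 11 to 14 members higher, 7 to 8 lower, 1 higher 2-fold and 2 to 3 lower 2-fold. For the further genes it gave 8 to 10 higher, 2 to 3 lower, 2 to 3 higher 2-fold and 0 to 1 lower 2-fold, with 0 without Ad-Con replicate 3. Values near 0 changed sign. Leaving out a library, Bax ranged from -0.0667 to 0.108, Pmaip1 from -0.0651 to 0.114, Diablo from -0.0894 to 0.277, Tnfrsf10b from -0.0690 to 0.0273, Dffb from -0.246 to 0.0489 and Pidd1 from -0.0600 to 0.0747 (log2 fold changes). Under quantile normalization Pmaip1 was at -0.0336, Sharpin at -0.00303 and Pidd1 at -0.0302, and under TPM scaling Tnfrsf10b was at 0.0165. With the replicate number as a block, 13 members were higher and 7 lower, and 10 and 3 further genes. Same-numbered libraries did not deviate together (correlations -0.0460, -0.0311 and -0.00129). The numbers thus gave no sign of pairing, though this cannot show that the samples were unpaired, and the labels do not say. Low depth limits Bik, Hrk and the ligands, which were not tested.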

Other observations

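Several genes of the 2 lists lie next to each other in the genome (GRCm38). Cflar and Casp8, which encode an inhibitor and the protease it restrains, lie on the plus strand of chromosome 1 with 36489 bases between them, and their log2 fold changes were 0.55 and 0.10, past the threshold for Cflar alone. Birc2 and Birc3, which encode the ubiquitin ligases cIAP1 and cIAP2, lie on the minus strand of chromosome 9 with 11634 bases between them, at 0.24 and 0.72, past the threshold for Birc3 alone. The difference between neighbours was tested only for Cflar and Casp8, as the ratio of their FPKM in each library (exact two-sided permutation test, p = 0.1, the smallest possible value).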
